A study of Homo sapiens with 2 samples.

Results

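The genes described here are 41 genes of the hypoxia response and of glycolysis, taken by gene symbol from the 16424 genes with values in both libraries. They fall into 3 classes, namely 7 regulators of the hypoxia-inducible factors (HIF), 17 HIF targets outside glycolysis and 17 glycolytic enzymes. PLC/PRF/5, a human hepatocellular carcinoma cell line, was either non-treated (0 µg/ml) or treated with 3 µg/ml Mac-2-binding protein glycan isomer (M2BPGi) for 6 h. M2BPGi is a glycosylated protein used as a serum marker of liver fibrosis, and the comparison asks which transcripts differ after the cells have been exposed to it. Cap analysis of gene expression (CAGE) was performed on 1 library per condition. A CAGE tag marks the capped 5′ end of a transcript, and each gene's value is its tags as CPM, scaled to the size of the library. The library totals, derived from the spacing of the CPM values and not reported as such, were similar. They were 24040210 tags for the non-treated and 24862941 for the M2BPGi-treated culture. Since each condition has 1 library, no difference has a replicate check and no p-value is given. Of the 41 genes, 40 had values, and 36 of these had a mean CPM of at least 1. CA12 was not among the genes with values and entered only the promoter counts below.

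In cells with enough oxygen, prolyl hydroxylases encoded by the EGLN genes mark the HIF alpha subunits, and the VHL protein then directs them to degradation. When oxygen is short the alpha subunits persist, pair with ARNT and bind a short core motif in DNA, from which they raise the transcription of genes for glucose uptake, glycolysis, blood vessel growth, pH control and collagen modification. Because this control acts on the HIF alpha proteins, the HIF mRNAs are a poor measure of HIF activity. Tumour cells, hepatocellular carcinoma cells included, often run glycolysis at a high rate even with oxygen present, and several glycolytic enzymes are made by abundant housekeeping genes that respond to many signals besides HIF.

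The HIF core motif was searched as ACGTG or GCGTG on either strand, in windows of 300 bases that start 250 bases before a gene's start site in the RefSeq promoter table (GRCh38.p14). The table held 57 promoters of 36 of the 41 genes. VHL, VEGFA, BNIP3L, NDRG1 and SLC2A3 were not matched. At least 1 core motif was present in 14 of 17 promoters of HIF targets (82.4%), in 23 of 32 promoters of glycolytic enzymes (71.9%) and in 4 of 8 promoters of HIF regulators, against 17012 of all 35116 promoters in the table (48.4%). With only the start sites that lay within 100 bases of the start of a coding transcript in the basic set of GENCODE v29, the motif was in 12 of 13, 17 of 23 and 3 of 7 promoters of these classes, and in 55.4% of all 16261 such promoters. A match is a description of the letters and not evidence of binding. The 250 bases before the start site are shown for 7 HIF targets and glycolytic enzymes, while sequences of HIF regulators were not considered for display. These 7 are the genes of both classes with a single promoter in the table that began at such a start. In addition, no other coding transcript of the gene started between these bases and 5000 bases upstream. Capitals mark the core motifs, and each sequence reads 5′ to 3′ along the gene's own strand.
CA9: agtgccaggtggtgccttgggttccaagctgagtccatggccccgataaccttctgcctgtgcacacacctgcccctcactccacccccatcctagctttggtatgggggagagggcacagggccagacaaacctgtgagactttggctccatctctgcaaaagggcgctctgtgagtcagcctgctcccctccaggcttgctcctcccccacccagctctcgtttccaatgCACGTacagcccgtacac
PLOD2: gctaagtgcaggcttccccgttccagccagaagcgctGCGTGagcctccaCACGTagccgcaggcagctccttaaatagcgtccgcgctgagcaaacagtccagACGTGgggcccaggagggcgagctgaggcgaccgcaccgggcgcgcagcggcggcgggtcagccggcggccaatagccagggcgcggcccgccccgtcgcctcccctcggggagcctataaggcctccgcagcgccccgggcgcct
P4HA1: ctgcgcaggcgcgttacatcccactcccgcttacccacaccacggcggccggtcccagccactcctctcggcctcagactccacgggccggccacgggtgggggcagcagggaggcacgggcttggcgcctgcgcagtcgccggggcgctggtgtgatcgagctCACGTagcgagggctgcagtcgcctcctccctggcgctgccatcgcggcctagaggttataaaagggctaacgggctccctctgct
BNIP3: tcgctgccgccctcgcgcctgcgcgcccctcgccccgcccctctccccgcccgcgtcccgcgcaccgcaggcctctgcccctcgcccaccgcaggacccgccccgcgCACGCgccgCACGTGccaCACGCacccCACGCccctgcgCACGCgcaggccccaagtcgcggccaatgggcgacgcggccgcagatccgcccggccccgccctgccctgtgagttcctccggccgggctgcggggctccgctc
PGK1: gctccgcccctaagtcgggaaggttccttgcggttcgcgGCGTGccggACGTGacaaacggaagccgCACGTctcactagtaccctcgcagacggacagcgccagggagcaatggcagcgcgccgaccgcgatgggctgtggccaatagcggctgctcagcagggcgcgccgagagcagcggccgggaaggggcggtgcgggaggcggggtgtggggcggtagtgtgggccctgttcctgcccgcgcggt
PFKL: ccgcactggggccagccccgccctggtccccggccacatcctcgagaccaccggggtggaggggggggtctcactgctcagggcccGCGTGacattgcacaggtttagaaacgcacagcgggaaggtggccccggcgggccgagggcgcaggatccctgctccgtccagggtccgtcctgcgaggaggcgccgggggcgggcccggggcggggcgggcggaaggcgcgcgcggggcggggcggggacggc
PFKFB4: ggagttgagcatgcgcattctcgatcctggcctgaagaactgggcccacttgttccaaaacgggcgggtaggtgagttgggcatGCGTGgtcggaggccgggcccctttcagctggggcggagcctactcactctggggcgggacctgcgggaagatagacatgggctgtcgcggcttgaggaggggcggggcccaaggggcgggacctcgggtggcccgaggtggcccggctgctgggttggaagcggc

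CA9 (chr9:35673678-35673927, plus strand) has its motif 14 bases before the start site, and P4HA1 (chr10:73096867-73097116, minus strand) has 1 motif, 82 bases before the start site. PLOD2 (chr3:146161185-146161434, minus strand) holds 3 motifs, BNIP3 (chr10:131981924-131982173, minus strand) 5 and PGK1 (chrX:78103998-78104247, plus strand) 3. PFKL (chr21:44299803-44300052, plus strand) and PFKFB4 (chr3:48556804-48557053, minus strand) hold 1 each.

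In M2BPGi-treated cells, the HIF targets outside glycolysis were mostly lower, while the glycolytic enzymes and the HIF regulators lay on both sides of no change. The values are log2 ratios of M2BPGi-treated to non-treated cells with 1 CPM added to both values, by which ratios of scarce transcripts are shrunk. The median log2 ratio was -0.43 for the 14 HIF targets with a mean CPM of at least 1, 0.03 for the 16 glycolytic enzymes (-0.12 without those that match elsewhere in the genome) and 0.14 for the 6 HIF regulators. Over all 13724 genes that pass this filter, the median was -0.05. NDRG1 passed this filter only through its value in non-treated cells, so it is left out of the counts of targets, and without it their median was -0.37. Of the other 13 HIF targets 12 were lower in M2BPGi-treated cells, against 57.0% of all genes. Of the 16 glycolytic enzymes 9 were higher, and of the 6 regulators 4 were higher, against 42.9% of all genes. Differences were small. At a threshold of 1.5-fold, 2 of the 36 genes were lower, PDK1 and PLOD2, against 4.04% of all genes, and 0 were higher, against 1.60% of all genes. These counts are near the background and are not a result about the 36 genes. At a lower fold threshold, added after the data were seen and given with the methods, 8 of the 13 HIF targets and 2 of the 16 glycolytic enzymes were lower, against 18.4% of all genes. At this threshold 0 of the 36 genes were higher, against 9.04% of all genes. The culture was measured in bulk, so that fewer cells expressing a gene and less RNA per cell cannot be told apart.

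**Figure D1:**
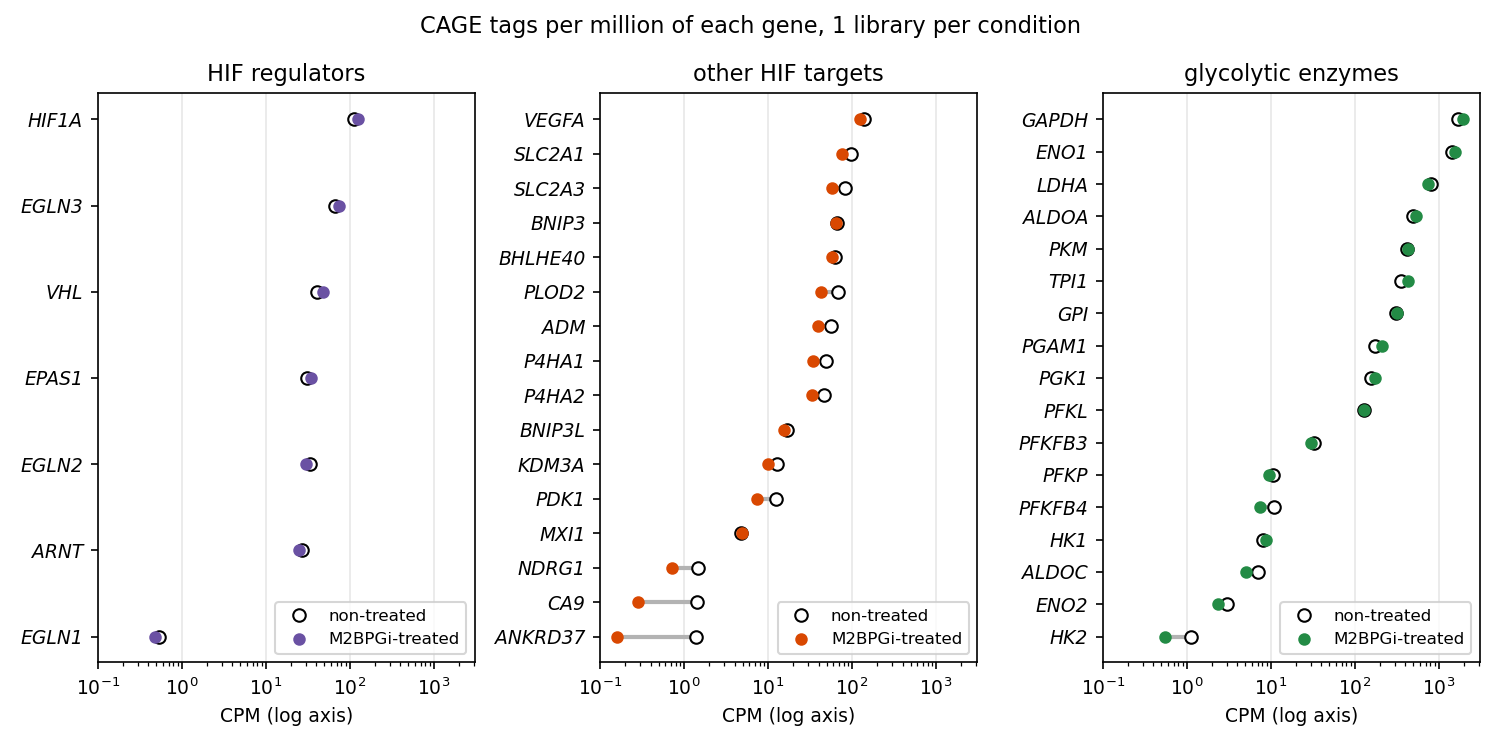
CPM of each gene in non-treated (open circles) and M2BPGi-treated cells (filled circles), on a log axis, by class, with 1 library per condition. Most HIF targets outside glycolysis lie lower in M2BPGi-treated cells, with PLOD2 at 67.7 and 42.6 CPM, while the abundant glycolytic enzymes lie close to or slightly above their non-treated values, with GAPDH at 1695 and 1936 CPM.

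For each gene, a 95% Clopper-Pearson interval was computed for the log2 ratio of its tags, here with no pseudocount. It covers counting error only and not the variation between cultures. This interval lay below 0 for 10 of the 13 HIF targets and for 3 of the 16 glycolytic enzymes, against 31.5% of all genes. It lay above 0 for 6 of the 16 glycolytic enzymes and for 3 of the 6 regulators, against 22.8% of all genes. These 6 enzymes, ALDOA, TPI1, GAPDH, PGK1, PGAM1 and ENO1, all match elsewhere in the genome. Whether an interval holds 0 depends on the number of tags, and the median of the mean CPM was 179 for the glycolytic enzymes, 44.9 for the targets and 38.6 for the regulators, against 20.9 for all genes. Among all genes within the middle range of each class's mean CPM, intervals lay above 0 for 27.5% at the level of the glycolytic enzymes and 26.6% at that of the regulators. They lay below 0 for 35.9% at the level of the targets. For the glycolytic enzymes this range ran from 9.9 to 447 CPM. ALDOA, LDHA, GAPDH and ENO1 lie above it, so that 27.5% is no background for these genes. CAGE counts 1 end per transcript, so that CPM values of different genes can be set side by side without a correction for length. On this scale the glycolytic enzymes summed to 6072 CPM without and 6592 CPM with M2BPGi, a ratio of 1.09 (interval 1.08 to 1.09). This sum is weighted by GAPDH and ENO1, which were higher by 241 and 142 CPM and both match elsewhere in the genome. The sum of the HIF targets was 719.9 and 567 CPM, a ratio of 0.787 (interval 0.770 to 0.805). For the regulators it was 312 and 339 CPM, a ratio of 1.08 (interval 1.05 to 1.12).

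The genes that control HIF had small differences in both directions. HIF1A (ENSG00000100644), which encodes the oxygen-regulated subunit of HIF-1, had 112 CPM without and 126 CPM with M2BPGi, a log2 ratio of 0.17 (interval 0.09 to 0.24). EPAS1 encodes the alpha subunit of HIF-2 and had 31.5 and 34.6 CPM (log2 ratio 0.13, interval -0.01 to 0.28). ARNT, the common partner of both alpha subunits, had 27.4 and 25.3 CPM (log2 ratio -0.11, interval -0.27 to 0.05). At this depth the values of EPAS1 and ARNT were not distinguishable between the libraries. VHL, the substrate receptor of the ligase that removes hydroxylated HIF alpha, had the highest ratio of the class with 40.6 and 47.9 CPM, a log2 ratio of 0.23 (interval 0.12 to 0.36).

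Among the prolyl hydroxylases, EGLN1, the main oxygen sensor of most cells, was barely detected with 13 tags (0.54 CPM) without and 12 tags (0.48 CPM) with M2BPGi, and its tag interval ran from -1.43 to 1.09. EGLN2 had 33.4 and 30.3 CPM (log2 ratio -0.14, interval -0.28 to 0.01). It shares its strand and position with the readthrough gene RAB4B-EGLN2, which had 37.1 and 32.3 CPM. EGLN3, itself induced by HIF in many cells, had 67.2 and 74.5 CPM, a log2 ratio of 0.15. The annotated span of EGLN3 also covers SPTSSA on the same strand, a gene of sphingolipid synthesis with 65.9 and 73.9 CPM. The value of SPTSSA was 98.1% of that of EGLN3 in non-treated cells, and how many of these tags belong to EGLN3 was not tested. EGLN3 minus SPTSSA was lower with M2BPGi (0.64 CPM) than without, in the opposite direction to the value of EGLN3 itself. EGLN3 is nevertheless part of the counts and the sum of the regulators, whose median was 0.15 without EGLN2 and EGLN3.

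Among the HIF targets past the filter other than NDRG1, the lowest ratios belonged to a mitochondrial and a collagen-modifying enzyme. PDK1 (ENSG00000152256, chr2:172555373-172608669 in GENCODE v29 on GRCh38, possibly another build than that of the mapping) encodes the kinase that inhibits pyruvate dehydrogenase and so limits the entry of pyruvate into the citric acid cycle. It fell to 7.40 CPM with M2BPGi, against 12.4 CPM without, a log2 ratio of -0.67 (interval -1.02 to -0.47). This call depends on the settings, since the log2 ratio of PDK1 was -0.49 with a pseudocount of 5 CPM, and its mean CPM of 9.90 is under the stricter filter of 10. PLOD2 (ENSG00000152952, chr3:146069440-146163653) encodes a lysyl hydroxylase that prepares collagen for cross-linking. It fell as well, with 67.7 CPM without and 42.6 CPM with M2BPGi and a log2 ratio of -0.66 (interval -0.78 to -0.56). Of all genes tested, 2.45% had a lower ratio than PDK1 and 2.67% a lower ratio than PLOD2.

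The prolyl 4-hydroxylases of collagen, which act in the endoplasmic reticulum on another substrate than the EGLN enzymes, had nearly the same ratio. P4HA1 (ENSG00000122884) had 49.1 CPM without and 34.5 CPM with M2BPGi, a log2 ratio of -0.50 (interval -0.64 to -0.38). P4HA2 (ENSG00000072682) had 46.8 and 32.9 CPM, also a log2 ratio of -0.50 (interval -0.64 to -0.38). The intervals of P4HA1, P4HA2 and PLOD2 lay below 0, as did those of 31.5% of all genes, and only PLOD2 passed 1.5-fold.

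The facilitative glucose transporters, which supply glycolysis, were lower as well but did not pass 1.5-fold. SLC2A1, the widely expressed transporter GLUT1, had 97.9 CPM without and 75.3 CPM with M2BPGi, a log2 ratio of -0.37 (interval -0.47 to -0.29). SLC2A3, the high-affinity transporter GLUT3, had 82.3 and 57.2 CPM, a log2 ratio of -0.52 (interval -0.63 to -0.43). SLC2A3 has a stretch that matches another gene in the genome, so the assignment of its tags is uncertain.

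The secreted signals of the hypoxia response differed from each other. ADM, which encodes the vasodilator peptide adrenomedullin, had 56.4 CPM without and 39.7 CPM with M2BPGi, a log2 ratio of -0.49 (interval -0.63 to -0.39). VEGFA, the growth factor of blood vessels and the most abundant HIF target of the class, had 139 and 123 CPM, a log2 ratio of -0.17 (interval -0.24 to -0.10). Their counting intervals did not overlap.

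Targets that act in mitochondrial clearance and in the nucleus had differing values. BNIP3 and BNIP3L encode receptors for the removal of mitochondria. BNIP3 had 67.0 CPM without and 64.2 CPM with M2BPGi (log2 ratio -0.06, interval -0.16 to 0.04), and it has a matching stretch elsewhere in the genome. BNIP3L had 16.7 and 15.5 CPM (log2 ratio -0.10, interval -0.31 to 0.10). For both, a difference was not detectable at this depth. The histone demethylase gene KDM3A had 12.9 and 10.1 CPM, a log2 ratio of -0.33 (interval -0.60 to -0.11). The transcriptional repressor gene BHLHE40 had 63.1 and 57.8 CPM, a log2 ratio of -0.12 (interval -0.23 to -0.02). MXI1, an antagonist of MYC, was the only tested target that was higher, with 4.78 and 4.95 CPM (log2 ratio 0.04, interval -0.33 to 0.43).

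The remaining targets had few tags in both libraries. CA9, the membrane carbonic anhydrase that serves as a marker of hypoxic tumour areas, had 34 tags (1.41 CPM) without and 7 tags (0.28 CPM) with M2BPGi, a log2 ratio of -0.91 with the pseudocount and -2.33 without it (interval -3.75 to -1.13). ANKRD37, a small ankyrin repeat protein gene induced by HIF, had 33 tags (1.37 CPM) and 4 tags (0.16 CPM), a log2 ratio of -1.03 with the pseudocount and -3.09 without it (interval -5.05 to -1.60). NDRG1, a stress response gene, had 35 tags (1.46 CPM) and 18 tags (0.72 CPM), a log2 ratio of -0.52 with the pseudocount and -1.01 without it (interval -1.92 to -0.15). CA9 and ANKRD37 are below the filter on the mean CPM. A count of 0 would allow up to 0.125 CPM without and 0.121 CPM with M2BPGi, so that ANKRD37 was near this floor in M2BPGi-treated cells. With all 16 listed targets, filter or not, 15 were lower, against 57.0% of the genes past the filter, and the median log2 ratio was -0.50. Under this setting 4 of the 40 listed genes were at least 1.5-fold lower, since CA9 and ANKRD37 joined PDK1 and PLOD2, against 3.85% of all 15125 genes with a tag. Because CA9, ANKRD37 and NDRG1 exceeded 1 CPM in non-treated cells only, nothing further is read from these counts.

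**Figure D2:**
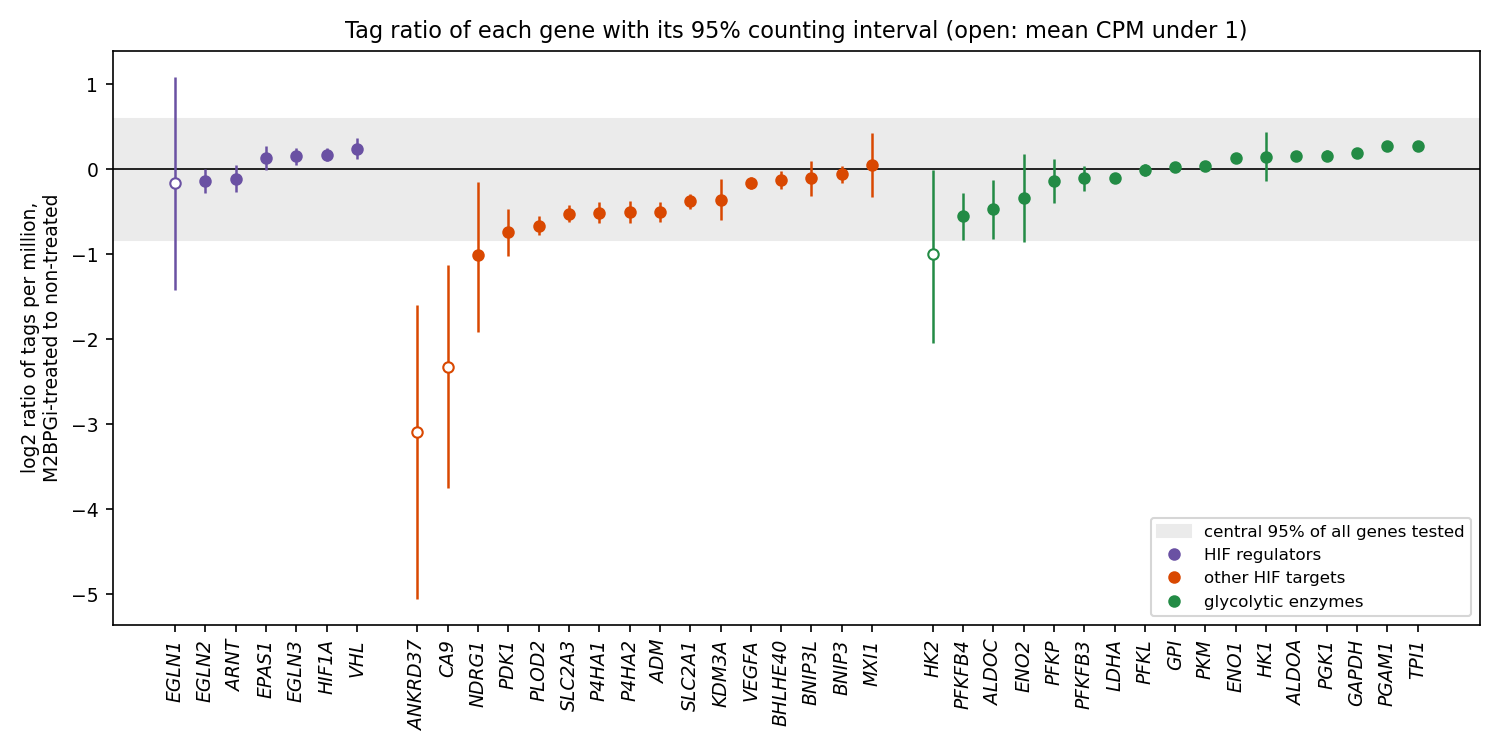
Log2 ratio of the CPM of each gene without a pseudocount, M2BPGi-treated to non-treated, with 95% counting intervals, ordered within each class, and with open circles where the mean CPM was under 1. The grey band holds the central 95% of all genes tested, from -0.83 to 0.59, and ANKRD37, CA9, NDRG1 and HK2 lie below it, but these genes have few tags and wide intervals, while the band is mostly made by more abundant genes.

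The glycolytic enzymes are best read along the pathway. At its entrance, hexokinases trap glucose as glucose 6-phosphate. HK1, the constitutive form, had 8.03 CPM without and 8.89 CPM with M2BPGi (log2 ratio 0.13, interval -0.14 to 0.43). HK2, the form that HIF induces in many tumours, had 27 tags (1.12 CPM) and 14 tags (0.56 CPM), a log2 ratio of -0.44 with the pseudocount (interval without it -2.04 to -0.01). It is below the filter, and it has a near-identical copy that is listed at 0. The next enzyme, glucose-6-phosphate isomerase (GPI), had 312 and 319 CPM (log2 ratio 0.03, interval -0.02 to 0.08).

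Phosphofructokinase commits the sugar to glycolysis. PFKL, the liver form, had 129 CPM without and 128 CPM with M2BPGi, a log2 ratio of -0.01 that becomes 0.05 when the libraries are rescaled to a median log2 ratio of 0. PFKP, the platelet form, had 10.6 and 9.65 CPM (log2 ratio -0.12, interval -0.40 to 0.12). The enzyme is activated by fructose 2,6-bisphosphate, which PFKFB3 and PFKFB4 make. PFKFB3 had 32.7 and 30.3 CPM (log2 ratio -0.11, interval -0.26 to 0.04). PFKFB4 had 11.0 and 7.48 CPM, a log2 ratio of -0.50 (interval -0.83 to -0.28), the lowest of the tested glycolytic enzymes.

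In the middle of the pathway the abundant enzymes were higher in M2BPGi-treated cells, although none of them passed either fold threshold. ALDOA, the main aldolase, had 491 CPM without and 545 CPM with M2BPGi, a log2 ratio of 0.15 (interval 0.12 to 0.19). Its isoenzyme ALDOC had 7.03 and 5.07 CPM, a log2 ratio of -0.40 (interval -0.82 to -0.13). Triosephosphate isomerase (TPI1) interconverts the products of aldolase and had 361 and 437 CPM, a log2 ratio of 0.28 (interval 0.24 to 0.32), the highest of the class. GAPDH, which oxidises glyceraldehyde 3-phosphate and is often used as a reference gene, had 1695 and 1936 CPM, a log2 ratio of 0.19 (interval 0.17 to 0.21).

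The lower part of glycolysis yields ATP and pyruvate. PGK1, the first of its ATP-making enzymes, had 155 CPM without and 173 CPM with M2BPGi, a log2 ratio of 0.16 (interval 0.10 to 0.22). The annotated span of PGK1 includes ATP7A on the same strand, whose value was 7.72% of that of PGK1 in non-treated cells. PGAM1, the phosphoglycerate mutase, had 175 and 212 CPM, a log2 ratio of 0.27 (interval 0.22 to 0.33). Among the enolases, ENO1 had 1450.3 and 1592 CPM, a log2 ratio of 0.13 (interval 0.11 to 0.16), and the values of the listed intronic transcript ENO1-IT1 were nearly the same as those of ENO1, with 1443 and 1587 CPM. The remainder of ENO1 after subtracting ENO1-IT1 was 7.36 and 5.71 CPM. ENO2, the neuronal form, had 2.99 and 2.37 CPM (log2 ratio -0.24, interval -0.86 to 0.18), beside the overlapping gene LRRC23 with 25.2 and 26.6 CPM. How tags were divided between such overlapping genes is not given in the sources used here.

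Pyruvate kinase and lactate dehydrogenase complete aerobic glycolysis. PKM had 418 CPM without and 429 CPM with M2BPGi, a log2 ratio of 0.04. LDHA, the isoenzyme that favours the reduction of pyruvate to lactate and a classical HIF target, had 813 and 757 CPM, a log2 ratio of -0.10 (interval -0.13 to -0.07). It was the only glycolytic enzyme above 100 CPM whose interval lay below 0.

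When isoenzymes were summed by step, with the isoenzymes outside the 41 genes included, most steps were slightly higher in M2BPGi-treated cells. Hexokinase was lower, with 57.0 CPM without and 47.5 CPM with M2BPGi, a ratio of 0.833 (interval 0.770 to 0.901). Its most abundant gene was HKDC1, a hexokinase domain gene outside the 41, which made up 83.9% of the step's tags in non-treated cells. Phosphofructokinase had a ratio of 0.999 (interval 0.954 to 1.05), glucose-6-phosphate isomerase of 1.02 (interval 0.989 to 1.05) and pyruvate kinase also of 1.02 (interval 0.993 to 1.05). The other steps had ratios from 1.09 for enolase to 1.21 for triosephosphate isomerase and phosphoglycerate mutase, with intervals above 1. Except for lactate dehydrogenase, the most abundant gene of each of these other steps matches elsewhere in the genome.

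**Figure D3:**
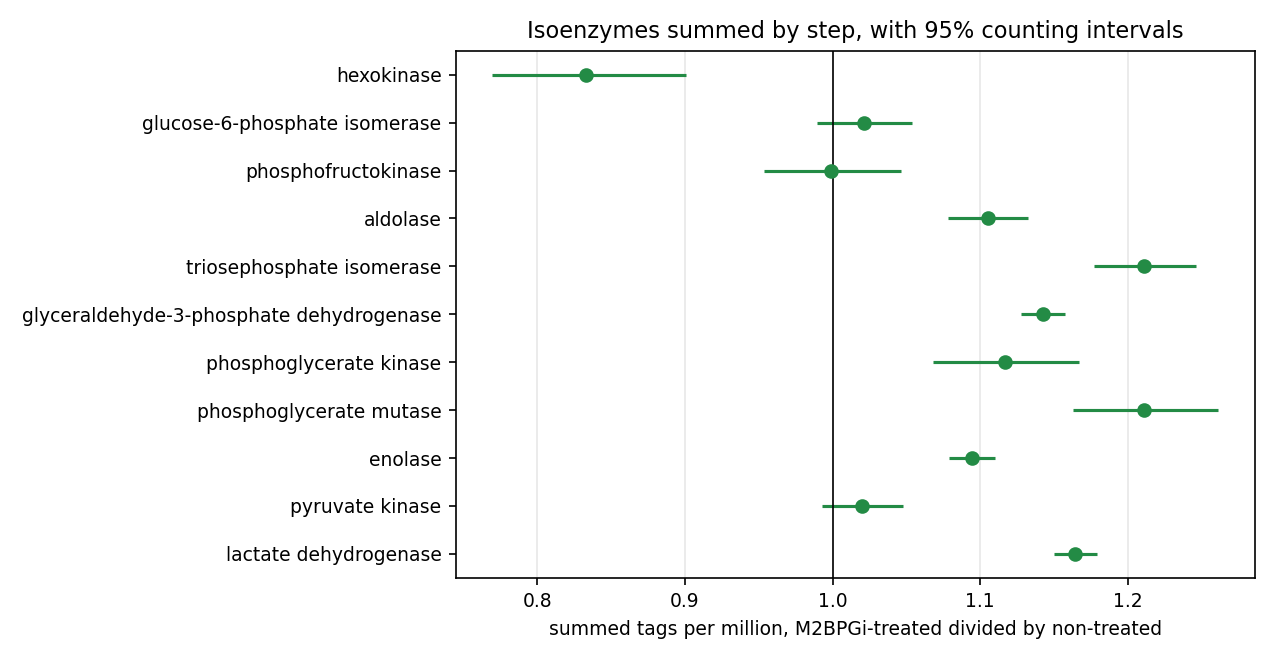
Ratio of the summed CPM of all listed isoenzymes at each step of glycolysis, M2BPGi-treated divided by non-treated, with 95% counting intervals and 1 library per condition. Hexokinase lies at 0.833, while 7 of the 11 steps have intervals above 1. Of all single genes, 22.8% had an interval above a log2 ratio of 0. Except for lactate dehydrogenase, the most abundant gene of each of these 7 steps matches elsewhere in the genome.

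The isoenzymes of lactate dehydrogenase and of aldolase did not share 1 direction. LDHA gave 43.6% of the lactate dehydrogenase tags in non-treated cells (Clopper-Pearson interval 43.1 to 44.0%) and 34.8% in M2BPGi-treated cells (34.4 to 35.2%). Its partner LDHB, which favours the oxidation of lactate, had 1054 and 1417 CPM. Within aldolase, the share of ALDOC was 1.41% (1.21 to 1.64%) in non-treated and 0.921% (0.768 to 1.10%) in M2BPGi-treated cells. ENO2 was a small part of enolase in both libraries, at 0.203% (0.159 to 0.255%) and 0.147% (0.112 to 0.189%). In hexokinase the share of HK1 was 14.1% (12.3 to 16.0%) and 18.7% (16.5 to 21.1%). HK2 made up 1.97% (1.30 to 2.85%) and 1.19% (0.650 to 1.98%). ENO3, the muscle enolase, made up 1.57% (1.44 to 1.70%) and 1.29% (1.18 to 1.41%), and the liver pyruvate kinase PKLR 3.64% (3.29 to 4.02%) and 2.93% (2.62 to 3.26%) of their steps. The intervals of the libraries did not overlap for LDHA, ALDOC, HK1, ENO3 and PKLR, while they did for ENO2, HK2, HKDC1 and the 3 phosphofructokinases. Shares within a step have no counterpart over all genes. Counting intervals of the log2 ratio lay below 0 for 31.5% and above 0 for 22.8% of all genes, so that separation beyond counting error was common between these libraries. A share also moves with the other genes of its step, and the log2 ratios of HK1 and ENO3 themselves had intervals that held 0, so their shares say nothing of their own direction.

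The classes also differed in level and in transcript length, and both were correlated with the log2 ratio across genes. Across the 13724 genes, the Spearman correlation of the log2 ratio with the mean CPM was 0.17. With the longest transcript of a gene in GENCODE v29 it was -0.16 over 13266 genes, and genes are not independent replicates. The median of the longest transcripts was 2798 nt for the glycolytic enzymes, 3640 nt for the HIF targets and 3925 nt for the regulators. All 1859 genes within the middle range (between the outer quartiles) of the HIF targets' lengths had a median log2 ratio of -0.07, and the 5821 genes within the middle range of their mean CPM had -0.06. For the glycolytic enzymes these medians were -0.05 over 4052 genes and -0.03 over 9173 genes, and for the regulators -0.07 over 1650 genes and -0.03 over 2342 genes. The part of length or level in the class medians was not tested.

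**Figure D4:**
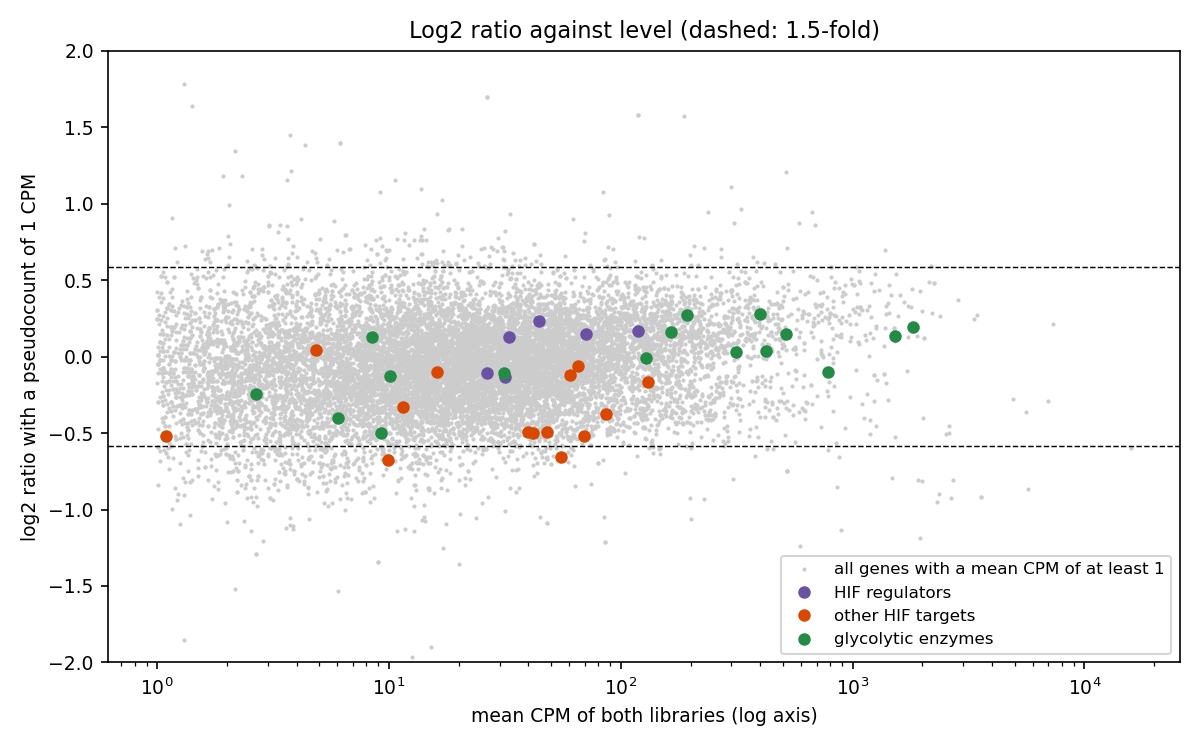
Log2 ratio with a pseudocount of 1 CPM against the mean CPM of both libraries (log axis) for all 13724 genes whose mean CPM reached 1 (grey) and the 36 genes of the 3 classes (coloured), with dashed lines at 1.5-fold and 25 genes beyond the vertical axis. PDK1 and PLOD2 lie below the lower dashed line, and no coloured point lies above the upper one.

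Of the 41 genes, 12 match another gene over at least 100 nt of their first 500 nt with at least 95% identity, and 9 of these are glycolytic enzymes (HK2, ALDOA, TPI1, GAPDH, PGK1, PGAM1, ENO1, PKM and LDHA). Without these genes the median of the glycolytic enzymes was -0.12, so that its sign rests on genes with such a match. A match can lie anywhere in these 500 nt of any transcript of a gene, and whether tags fall in it was not tested. The genes with a match include all glycolytic enzymes above 150 CPM except GPI. The other 3 are HIF1A, BNIP3 and SLC2A3. Among the listed genes with such a match, those of LDHA had the highest sum, 108.9 CPM without and 98.2 CPM with M2BPGi. This sum came from C2CD3, NETO2, STAP2 and USP8, which are other genes and not copies, while LDHAP2 was at 0 CPM. The match of HIF1A is IKBKB, also another gene and not a copy, with 17.1 and 13.6 CPM. Whether this match affects the assignment of HIF1A tags was not tested. The copies of GAPDH summed to 16.8 CPM without and 14.4 CPM with M2BPGi, those of TPI1 to 3.54 and 4.67 CPM and those of PGAM1 to 8.28 and 9.66 CPM.

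Genes around the 41 genes were examined by 7 further lists. Of the 12 other regulators of the HIF pathway 10 had values, with a median log2 ratio of 0.07 and 6 higher, against 42.9% of all genes. The highest were RBX1, with 153 CPM without and 193 CPM with M2BPGi, and TCEB2 (elongin B), with 344 and 426 CPM, both components of the ligase that carries VHL. CITED2, an inhibitor of HIF that competes for its coactivator, was the lowest with a log2 ratio of -0.29, followed by CREBBP, which encodes a coactivator of HIF, with 4.83 and 3.78 CPM and by CUL2, the scaffold of the same ligase as RBX1, with 19.5 and 17.0 CPM. None of the 10 passed 1.5-fold.

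Of 29 further HIF targets 26 had values and 22 had a mean CPM of at least 1. Their median log2 ratio was -0.25, and -0.21 without ANGPTL4, with 16 of the other 21 genes lower, against 57.0% of all genes, and 5 higher. ANGPTL4, a secreted lipase inhibitor with 1.87 and 0.88 CPM, passed the filter only through its value in non-treated cells. Of the other 21 genes 2, INSIG2 and TFRC, were at least 1.5-fold lower, against 4.04% of all genes. Both calls are lost on rescaling, with log2 ratios of -0.57 for INSIG2 and -0.55 for TFRC, and that of INSIG2 also with a pseudocount of 5 CPM. INSIG2, a regulator of sterol synthesis, had 50.6 CPM without and 32.4 CPM with M2BPGi, and TFRC, the transferrin receptor, had 515 and 338 CPM. In the other direction, DDIT4, an inhibitor of mTORC1, had 41.2 and 60.6 CPM and the cytokine gene MIF 1261 and 1669 CPM. DDIT4 and MIF show that the HIF targets as a whole did not move in 1 direction.

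Further enzymes of sugar metabolism differed by pathway. Of the 17 further glycolytic enzymes and isoenzymes 8 had a mean CPM of at least 1, with a median of -0.20 and 6 lower, against 57.0% of all genes. ADPGK, an ADP-dependent glucokinase, had 77.5 CPM without and 56.3 CPM with M2BPGi, HKDC1 47.8 and 38.0 CPM, and PFKM, the muscle phosphofructokinase, 9.23 and 11.1 CPM. All 7 genes of the pentose phosphate pathway, which makes NADPH and ribose, were tested, with a median of 0.34 and 6 higher, against 42.9% of all genes. RPE had 30.7 and 40.5 CPM, PGLS 138 and 176 CPM and TALDO1 171 and 203 CPM, while TKT, the transketolase, was lower with 297.5 and 254 CPM. None of these 7 genes passed 1.5-fold, while 5 were higher past the lower fold threshold, against 9.04% of all genes.

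For gluconeogenesis, the reverse of glycolysis in liver, 5 of 8 genes were tested and had a median of -0.44, with 4 lower, against 57.0% of all genes. PCK1, the cytosolic enzyme that makes phosphoenolpyruvate, was the 1 gene at least 1.5-fold lower, against 4.04% of all genes, with 8.82 CPM without and 5.43 CPM with M2BPGi. Its log2 ratio of -0.61 became -0.56 on rescaling and -0.41 with a pseudocount of 5 CPM, so that the call is lost in both. SLC37A4, which carries glucose 6-phosphate into the endoplasmic reticulum, had 62.7 CPM without and 41.9 CPM with M2BPGi, PC 20.7 and 15.0 CPM, G6PC3 40.6 and 35.4 CPM, and the mitochondrial PCK2 100.2 and 125 CPM. None of these 4 passed 1.5-fold. The 15 tested genes of pyruvate and lactate handling had a median of 0.01, with 7 lower and 8 higher, against 57.0% and 42.9% of all genes. Of these SLC16A3, a lactate transporter with 2.08 and 1.01 CPM, was the 1 gene at least 1.5-fold lower, against 4.04% of all genes, and its call is lost on rescaling and with a pseudocount of 5 CPM. The lowest whose mean CPM reached 10 were BSG, the chaperone of the lactate transporters, with 846 and 616 CPM, and SLC16A1, such a transporter, with 24.0 and 18.5 CPM. The highest were PDHB with 89.2 and 105 CPM and PDHX with 49.7 and 58.4 CPM, both parts of the pyruvate dehydrogenase complex. Of 8 further genes of the glucose transporter family, whatever sugar they carry, 5 were tested. All 5 were lower, against 57.0% of all genes, with a median of -0.34. Among them SLC2A2, the liver transporter GLUT2, had 27.9 and 21.9 CPM, SLC2A13 14.6 and 10.1 CPM, SLC2A6 26.9 and 20.0 CPM and SLC2A8 39.1 and 32.4 CPM. The remaining one, SLC2A4, had 55 tags in both libraries, and its log2 ratio of -0.04 changes sign on rescaling.

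**Figure D5:**
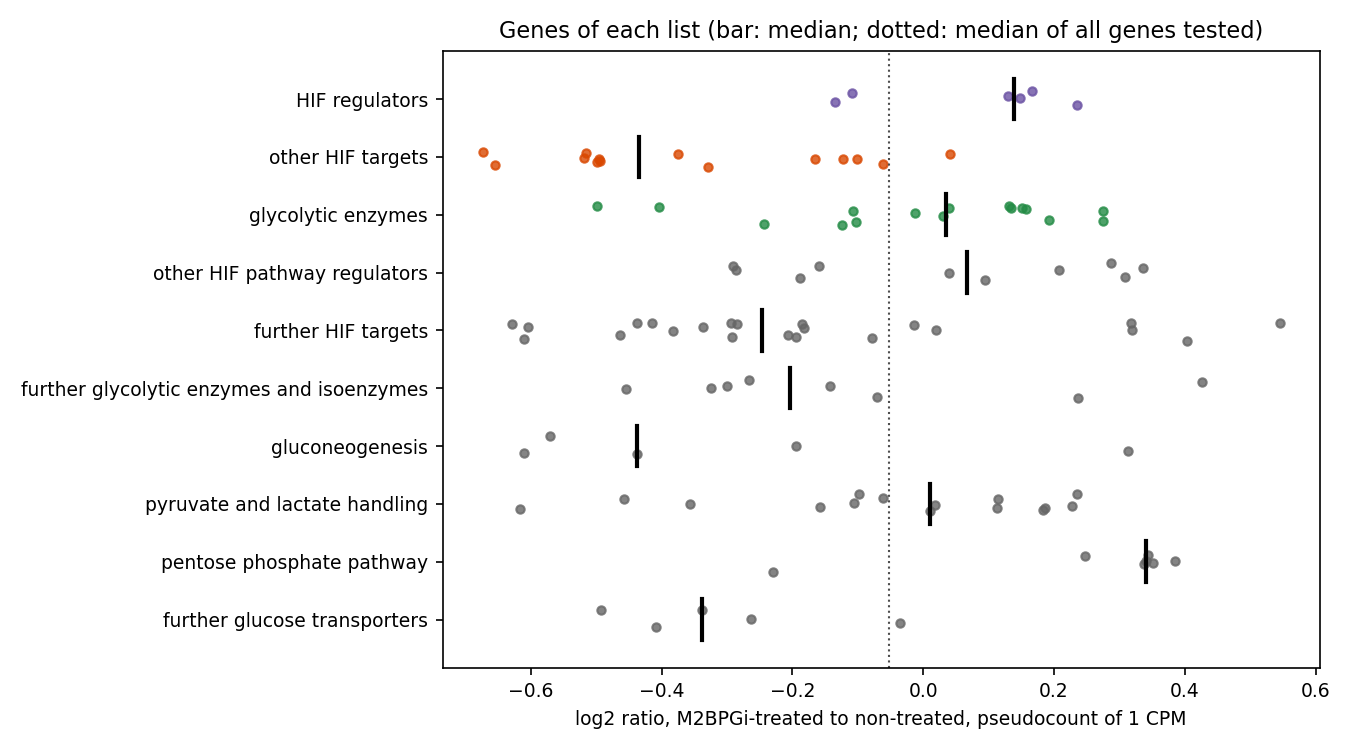
Log2 ratio with a pseudocount of 1 CPM, M2BPGi-treated to non-treated, of each gene with a mean CPM of at least 1 in the 3 classes (coloured) and the 7 further lists (grey), with the median of each list as a bar and that of all genes tested as a dotted line at -0.05. The medians run from -0.44 for gluconeogenesis to 0.34 for the pentose phosphate pathway.

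The cells were checked against markers of liver and of other cell types. All 11 hepatocyte markers had a mean CPM of at least 1, led by KRT18 with 1249.8 CPM without and 1592 CPM with M2BPGi, and they summed to 3593 and 3554.5 CPM. This sum is weighted by KRT18. Of the 11 markers 7 were lower, against 57.0% of all genes, and the same 7 had an interval below 0, against 31.5% of all genes, with a median log2 ratio of -0.26. The lowest was SERPINA1, which encodes a secreted protease inhibitor, with 671 and 455 CPM and a log2 ratio of -0.56. A negative median was therefore not limited to the HIF targets. AFP, the fetal albumin homologue made by many liver tumours, had 695 and 566 CPM, while ALB itself had 8.82 and 7.04 CPM. Of 7 stromal markers 2 had values and summed to 5.20 and 4.18 CPM, with COL3A1 the most abundant at 4.53 and 3.42 CPM. Of 5 leukocyte markers 2 had values, and both of these, PTPRC and ITGAM, were at 0 tags in both libraries. None of the 4 endothelial markers had values.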

How the data were processed

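CAGE libraries of PLC/PRF/5 cells, 1 non-treated and 1 treated with 3 µg/ml M2BPGi for 6 h, were analysed. The authors deposited CPM per gene, rounded to 2 decimals. Per the paper, ribosomal tags were removed and the 5′ ends clustered. It names a mouse genome for mapping, whereas the submitters' processing notes name BWA, HISAT2 and hg19, and the gene identifiers are human. Here, tags were derived from the spacing of the CPM values. All values above 0 (100%) were whole tags within the rounding. In non-treated cells 87.6% of low values came within 0.1 of a tag, taken as too few for edgeR, whose tests were not run. The rounding itself limits this share, so it does not show that values were other than whole tags. The counting intervals do use these tags and describe the libraries, not the conditions. Log2 ratios used a pseudocount of 1 CPM and a mean CPM of at least 1, and calls a fold of 1.5. An added lower fold threshold was 1.25. Genes named are the 41 genes and, per further list, the 2 highest and 2 lowest with a mean CPM of at least 10. Any other gene was named with its values known. The genes and lists were chosen with earlier results of these data known. Alternatives were other pseudocounts, filters, folds and scalings. Intervals were tested on simulated data. Matching stretches in other genes were searched with BLAST+ 2.17.0 in GENCODE v29. Python 3.11.15 and scipy 1.17.1 were used.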

Additional observations from a re-analysis of the deposited data

How the results depend on the processing

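No library can be left out of a comparison of 1 with 1, and variation between cultures could not be estimated. No paired analysis was possible because a single library stands for either condition. TMM factors and the exact test of edgeR were not run. All values were whole tags within the rounding, but the rounding is wide beside the CPM of 1 tag and 87.6% of low non-treated values came within 0.1 of a tag, which was taken as too few for these methods.

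The count of genes at least 1.5-fold lower, 2 in the main setting (all genes 4.04%), was 1 with a pseudocount of 5 CPM (all genes 1.19%) and 1 when the mean CPM had to reach 10 (2.36%), both by the loss of PDK1, 4 with no filter beyond 1 tag (3.85%), 0 at a fold threshold of 2 (0.430%) and 11 at the added lower threshold (18.4%). The 11 genes at the added lower threshold include NDRG1, which passed the filter only through its value in non-treated cells. Without NDRG1 they were 10. A larger pseudocount shrinks ratios, the filters change the genes tested, and the threshold sets the count. The count was 3 with a pseudocount of 0.1 CPM (6.24%), where the added gene was NDRG1, so nothing is read from this rise. The count at least 1.5-fold higher was 0 in every setting run. The median of the HIF targets moved to -0.30 with a pseudocount of 5 CPM and was between -0.50 and -0.37 in the other settings. The median of the glycolytic enzymes was -0.12 without genes that match elsewhere in the genome, and between 0.03 and 0.09 in the other settings. The regulators' median was between 0.13 and 0.19. The lower fold threshold and the settings without genes that match elsewhere or share tags with an overlapping gene, or without NDRG1, were chosen after the data were seen. For 91 of the named genes, 273 values were taken under other pseudocounts or the rescaling. Of these values, 17 moved by more than the counting interval and 2, those of PFKL and SLC2A4, changed sign.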

Other observations

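The groupings here were made after the values were seen, so the counts are descriptions and nothing was tested. Among the HIF targets outside glycolysis, the 7 tested genes whose proteins enter the secretory pathway (VEGFA, ADM, P4HA1, P4HA2, PLOD2, SLC2A1 and SLC2A3) had a median log2 ratio of -0.50, and 6 of them were lower past the added lower fold threshold, against 18.4% of all genes. Of the other tested targets, the 6 besides NDRG1 had a median of -0.11, with 2 past that threshold. NDRG1 is left out because it passed the filter only through its value in non-treated cells, as is ANGPTL4 below. Among the further HIF targets, 9 tested genes of the secretory pathway had a median of -0.38, with 8 lower, and the other 12 had a median of -0.18, with 8 lower, against 57.0% of all genes. The gene that was higher in this secretory group was STC2, a secreted glycoprotein, with 51.3 CPM without and 64.2 CPM with M2BPGi.

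Genes of lactate export differed in direction from those of pyruvate import and pyruvate dehydrogenase. The step of lactate dehydrogenase was higher, with a ratio of 1.16 (interval 1.15 to 1.18), in which LDHB was higher and LDHA lower. The 3 genes of lactate export, SLC16A1, SLC16A3 and BSG, were all lower in M2BPGi-treated cells, against 57.0% of all genes. Their sum was 872 and 635 CPM, of which BSG gave 846 and 616 CPM, so that the sum describes BSG. SLC16A3, a lactate transporter induced by HIF, had 2.08 and 1.01 CPM. The 7 genes of pyruvate import into mitochondria and of the pyruvate dehydrogenase complex were all higher, against 42.9% of all genes, with 5 intervals above 0, against 22.8% of all genes, and summed to 859 and 946 CPM, a ratio of 1.10 (interval 1.08 to 1.12). PDK1, an inhibitory kinase of this complex, was lower. PDK4 was lower as well, with 128 and 115 CPM (log2 ratio -0.16, interval -0.23 to -0.09). PDK2 had 40.3 and 38.6 CPM and PDK3 31.4 and 31.8 CPM, with intervals that held 0. The activating phosphatases PDP1, with 19.0 and 17.7 CPM, and PDP2, with 41.1 and 38.1 CPM, were lower, and both counting intervals held 0.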
